A study of Mus musculus with 4 samples.

Results

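The 25 genes described here were those of the nuclear receptor family that carry a symbol of the systematic Nr nomenclature, that is Nr, a digit for the subfamily, a letter for the group and a number for the gene. They were taken from 22096 gene symbols by that form of symbol alone and without regard to their levels, and the FPKM (fragments scaled by transcript length and by the mapped reads of the library) of all transcript entries of a symbol were summed in each embryo. Receptors that go by older names, such as Rara, Thra or Esr1, were not members and were kept as a list for comparison. RNA was measured in red fluorescent cells sorted from the palate of 4 mouse embryos at embryonic day 13.5, with 1 embryo per library and no pooling. All 4 embryos carried Osr2RFP/+, a knock-in that puts the red fluorescent protein under the control of the Osr2 locus and so marks palatal mesenchyme. The 2 control embryos were 1 Foxf2+/+ and 1 Foxf2+/- littermate, and the other 2 embryos were Foxf2-/-. Foxf2 encodes a forkhead transcription factor of the palatal mesenchyme. The null allele was constitutive, so Foxf2 was missing from the whole embryo and not only from the sorted cells. The mice were of mixed genetic background. The question was which genes depend on Foxf2 in these cells.

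Nuclear receptors are transcription factors that bind DNA through a pair of zinc fingers and, in most members, a lipophilic ligand through a separate carboxy-terminal domain. Steroid receptors such as the glucocorticoid receptor (Nr3c1) wait in the cytoplasm with heat shock chaperones until hormone binds, receptors such as the LXRs (Nr1h2, Nr1h3) sit on DNA as partners of the retinoid X receptors, and orphan receptors such as the COUP transcription factors (Nr2f1, Nr2f2, Nr2f6) or the Nr4a group are governed largely by how much of them is made. In facial mesenchyme the COUP transcription factors are known regulators of neural crest derivatives, and glucocorticoid excess is a classical cause of cleft palate in mice.

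The Foxf2 level followed the labels, at 85.4 FPKM in the Foxf2+/+ control, 45.1 in the Foxf2+/- control and 1.41 and 2.28 in the Foxf2-/- embryos. Osr2, which drives the reporter, lay between 129 and 147 FPKM in the 4 embryos. All 14 palatal mesenchyme markers were above 1 FPKM in at least 1 embryo, and their summed level of 1534 to 1934 FPKM overlapped between the groups. Taken singly, both Foxf2-/- embryos lay below both controls for 7 of them and above for 1, against 35.5% and 10.2% of all genes. In the limma test described below 5 had an unadjusted p under 0.05, against 13% of all genes, and 0 were called. Red cell RNA was present in all libraries, and the sum of 12 blood and immune markers, nearly all of it hemoglobin, ran from 309 FPKM in the Foxf2+/+ control through 1779 in the Foxf2+/- control and 1532 in Foxf2-/- embryo 1 to 4187 in Foxf2-/- embryo 2. The other marker sums were 10.5 to 13.05 FPKM for 14 epithelial and 4.23 to 8.01 for 10 neuronal and glial genes, which overlapped between groups, and 2.59 and 2.96 in controls against 1.62 and 1.58 in Foxf2-/- embryos for 10 muscle genes. Their part in the differences given below was not tested. Read totals are not part of the values, so the depth is unknown. The coverage listed for 1 FPKM was 1 to 1.19 times that of the Foxf2+/+ library, so the 4 libraries were of like relative depth. As in any bulk sample, fewer cells of a type and less RNA per cell could not be told apart.

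The DNA-binding sequences of the COUP transcription factors Nr2f1 and Nr2f2 are shown first, because Nr2f1 was the most abundant member, Nr2f2 one of the genes that differed most, and the pair share runs of identical sequence. Each run covers both zinc fingers from the first to the last cysteine of the pattern, 168 bases on the coding strand of mouse genome build mm9. The capitals mark the 5 residues from the third cysteine of the first finger on. They overlap the P box, the stretch that reads the DNA site, and do not mark its exact ends.
Nr2f2 zinc fingers, mm9 chr7:77504814-77504981, minus strand: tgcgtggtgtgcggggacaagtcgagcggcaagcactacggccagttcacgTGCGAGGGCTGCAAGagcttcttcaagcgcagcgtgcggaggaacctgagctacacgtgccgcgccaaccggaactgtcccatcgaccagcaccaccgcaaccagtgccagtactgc
Nr2f1 zinc fingers, mm9 chr13:78337421-78337588, minus strand: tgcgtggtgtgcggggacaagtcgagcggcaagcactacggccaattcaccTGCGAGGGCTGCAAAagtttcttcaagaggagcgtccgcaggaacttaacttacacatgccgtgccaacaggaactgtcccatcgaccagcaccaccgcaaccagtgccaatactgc
The 2 genes shared 90.5% of these bases, with 16 of 168 differing. Nr2f2 shared 83.9% with Nr2f6, and Nr2f1 shared 81.0% with it. Over whole transcripts the longest run identical between Nr2f1 and Nr2f2 was 59 bases, against 23 bases for either with Nr2f6. A read wholly within such a run cannot be assigned to 1 gene with certainty. The read length is not given in the sources used here, so whether any read lay within one is unknown. The library kit did not mark strand. Of the 25 members, 22 had no other symbol overlapping their locus in the deposited tables, and the exceptions were Nr1i3, Nr2c2 and Nr6a1.

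Nuclear receptor RNA in these cells was concentrated in few genes. The 25 members summed to 66.7 FPKM in the Foxf2+/+ control, 66.5 in the Foxf2+/- control, 70.4 in Foxf2-/- embryo 1 and 77.7 in Foxf2-/- embryo 2, and both Foxf2-/- sums were above both control sums. The 4 most abundant members, Nr2f1, Nr1h2, Nr2c2 and Nr2f6, held 64.3%, 65.7%, 64.4% and 62.9% of that sum. By mean FPKM over the 4 embryos the order was Nr2f1 at 19.9, Nr1h2 at 10.9, Nr2c2 at 8.14, Nr2f6 at 6.22, Nr2f2 at 5.76, Nr4a2 at 3.97, Nr3c1 at 3.62, Nr2c1 at 2.69, Nr1d1 at 2.59, Nr4a1 at 2.10, Nr5a2 at 1.49 and Nr1d2 at 1.04. FPKM is scaled by transcript length, so these levels may be ordered between genes. Over the 4 embryos the ranges of Nr2f1, Nr1h2 and Nr2c2 did not overlap with each other or with any later member. From Nr2f6 down to Nr5a2 each gene's range overlapped with that of the next in the order, and Nr1d2 lay below Nr5a2 in every embryo. Those 12 genes reached 1 FPKM in at least 1 embryo and were tested. The other 13 members stayed below 1 FPKM in all 4 embryos and were not tested.

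**Figure D1:**
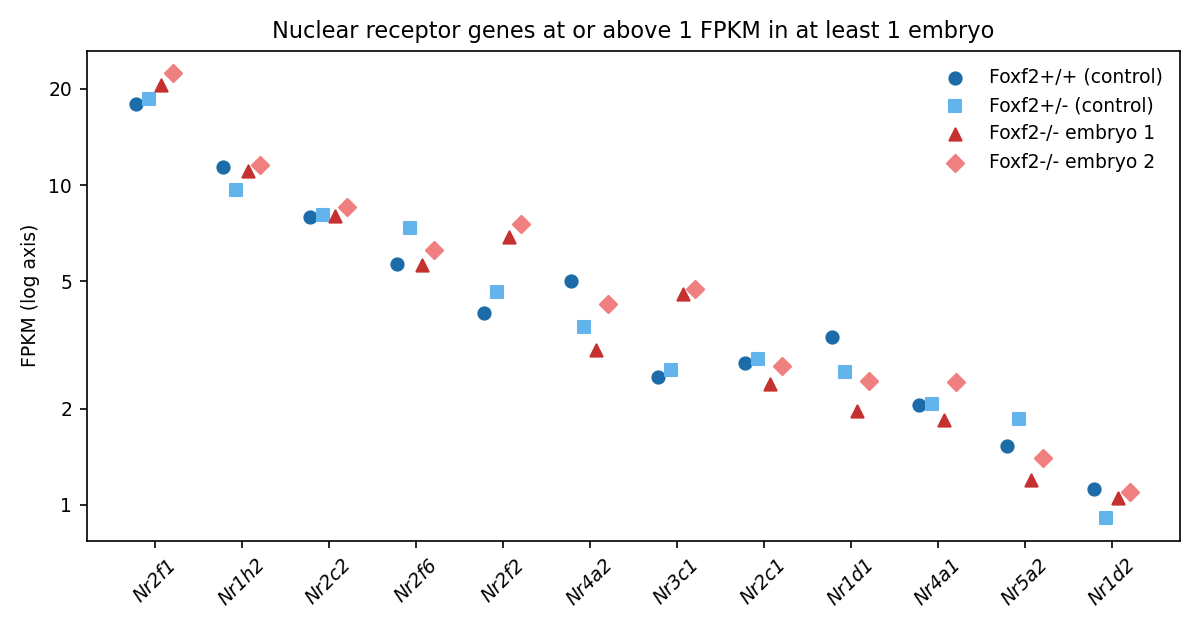
Level of the 12 tested nuclear receptor genes in each embryo, in FPKM on a log axis, with 1 point per embryo and genes ordered by their mean over the 4 embryos. For Nr2f2 and Nr3c1 both Foxf2-/- points lie clearly above both control points (Nr3c1 at 4.55 and 4.75 against 2.52 and 2.65 FPKM), while for 6 of the 12 genes the groups overlap.

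The Foxf2-/- embryos were compared with the 2 controls on log2(FPKM + 0.1) in 2 ways. The first was limma's moderated test over all 11571 tested genes, with a call where the Benjamini-Hochberg adjusted p was under 0.05 and the fold exceeded 1.5. The second was a rule of size without a test, by which the mean of the Foxf2-/- embryos had to lie more than 1.5-fold from the Foxf2+/+ and from the Foxf2+/- control in the same direction. limma called none of the 12 members, that is 0 of 12, against 7 of 11571 genes or 0.0605% of those tested, and 3 members (Nr2f1, Nr2f2 and Nr3c1) had an unadjusted p under 0.05, as had 13% of all genes tested. By the rule of size 2 of the 12 members, Nr2f2 and Nr3c1, lay above both controls, against 0.873% of all genes, and 0 lay below, against 0.994% (1.87% in either direction). Another 9 members had a Foxf2-/- mean within 1.5-fold of each control, and Nr1d1 passed that limit against the Foxf2+/+ control alone. Both Foxf2-/- embryos lay above both controls for 3 members, against 10.2% of all genes, and below both for 3 (Nr1d1, Nr2c1 and Nr5a2), against 35.5%, so that 45.6% of all genes had groups without overlap in either direction. With 2 embryos in each group the exact two-sided permutation test of a single gene cannot give a p below 0.3333. The median log2 fold change of the 12 members was 0.04, within a range of -0.41 to 0.82, and that of all genes tested was -0.08. Where the embryos were rescaled by median ratio or upper quartile, the median of all genes came to 0.00 and the split moved. Genes by the rule of size were then 123 above and 80 below under median-ratio scaling, or 122 above and 82 below under upper-quartile scaling, against 101 above and 115 below as deposited. Under either scaling 6 members lay above both controls (Nr2f1, Nr2f2 and Nr3c1 with Nr1d2, Nr1h2 and Nr2c2) and 2 below (Nr1d1 and Nr5a2), against 21.2% of all genes above and 21.5% below with median-ratio scaling and 20.6% above and 21.7% below with upper-quartile scaling. The rule of size then named Nr2f2 and Nr3c1 as before.

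**Figure D2:**
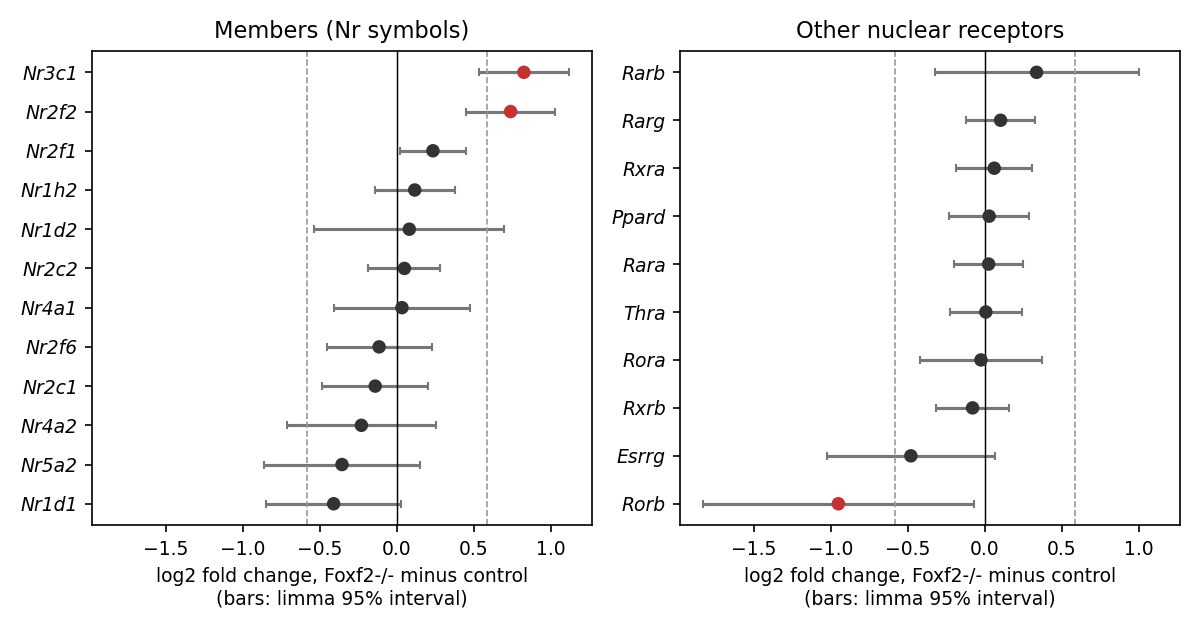
log2 fold change on log2(FPKM + 0.1), Foxf2-/- minus control, with the limma 95% interval as bars, for the 12 tested members on the left and 10 other nuclear receptors on the right. Dashed lines mark 1.5-fold, and red points mark genes more than 1.5-fold from each control in the same direction, which are Nr3c1 at 0.82 and Nr2f2 at 0.74 among the members and Rorb at -0.95 among the others.

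Nr3c1 encodes the glucocorticoid receptor, which binds cortisol or corticosterone. Its level was 2.52 FPKM in the Foxf2+/+ control, 2.65 in the Foxf2+/- control, and 4.55 and 4.75 in the Foxf2-/- embryos. The groups did not overlap, and the embryos within each group lay close together, at 2.58 ± 0.0917 FPKM (SD, n = 2) in controls and 4.65 ± 0.139 (SD, n = 2) in Foxf2-/- embryos. The log2 fold change was 0.82 ± 0.13 (SE), or 1.77-fold with a limma 95% interval of 1.45 to 2.17, and by p it ranked 25th of 11571 genes, with a limma adjusted p of 0.104. The change was 0.86 against the Foxf2+/+ control and 0.79 against the Foxf2+/- control, while the Foxf2+/- control exceeded the Foxf2+/+ control by 0.07, all on the log2 scale. Nr3c1 has 1 entry in the tables and lies on chromosome 18. Nr3c2, the mineralocorticoid receptor, which binds the same hormones, stayed low, at 0.451, 0.346, 0.396 and 0.352 FPKM in the Foxf2+/+, the Foxf2+/- and the 2 Foxf2-/- embryos.

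The genes around the glucocorticoid receptor were taken from lists. Of 13 chaperones and steroid enzymes 11 were tested, limma called 0, and the rule of size named 0. In limma 4 had an unadjusted p under 0.05, as had 13% of all genes tested. Their median log2 fold change was -0.11, against -0.08 for all genes tested. Both Foxf2-/- embryos lay below both controls for 6 of them and above for 1, against 35.5% and 10.2% of all genes. Fkbp4, a co-chaperone that helps carry the receptor to the nucleus, measured 108 and 100.4 FPKM in controls and 81.2 and 85.0 in Foxf2-/- embryos, a log2 fold change of -0.32 with a limma adjusted p of 0.266. Hspa8, the constitutive heat shock cognate chaperone, differed by -0.29 and Hsp90aa1, a cytoplasmic HSP90, by -0.22, with limma adjusted p of 0.325 and 0.347. Hsd17b4, a peroxisomal enzyme that also acts on steroids, differed by 0.22 with a limma adjusted p of 0.357. Hsd11b1 and Hsd11b2, which activate and inactivate glucocorticoid, were below 1 FPKM in every embryo. Of 19 genes known as targets of the receptor in other tissues 13 were tested, limma called 0 (0 at an unadjusted p under 0.05), the rule of size named 0, and the median log2 fold change was -0.02 within -0.24 to 0.39. Fkbp5, a classical target that feeds back on the receptor, measured 4.37 and 4.50 FPKM in controls and 4.04 and 4.39 in Foxf2-/- embryos. Tsc22d3 (GILZ) measured 5.20 and 4.61 against 4.38 and 4.92, and Per1 4.54 and 4.33 against 4.54 and 5.10. These groups overlapped for Tsc22d3 and Per1 and for Fkbp5 as well. Among the 13 tested genes the largest difference was that of Nfkbia, the inhibitor of NF-kappa B, at 1.82 and 2.13 FPKM in controls and 2.47 and 2.75 in Foxf2-/- embryos, or 0.39 on the log2 scale with a limma adjusted p of 0.385.

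The COUP transcription factors are orphan receptors that mostly repress transcription and are known from neural crest, venous endothelium and organ mesenchyme. Nr2f2 (COUP-TFII, mm9 chr7:77496835-77511632) measured 3.97 FPKM in the Foxf2+/+ control, 4.63 in the Foxf2+/- control, and 6.89 and 7.56 in the Foxf2-/- embryos. Both Foxf2-/- embryos were above both controls, with means of 7.23 ± 0.472 against 4.30 ± 0.468 FPKM (SD, n = 2 each). The log2 fold change was 0.74 ± 0.12 (SE), or 1.67-fold with a limma 95% interval of 1.37 to 2.04, ranking 41st of 11571 by p with a limma adjusted p of 0.119. The adjusted p of 42 genes, 0.363% of those tested, was at or under that value. The change was 0.85 against the Foxf2+/+ and 0.63 against the Foxf2+/- control, and the latter lay 0.22 above the former on the log2 scale. Without Foxf2-/- embryo 2 the change against the Foxf2+/- control was 0.56, which is under the limit of 1.5-fold (0.58 on this scale), and Nr2f2 then left the 2 genes that passed the rule of size. Because Nr2f2 is abundant in venous endothelium, endothelial markers stand beside it. All 11 of them were under 1 FPKM in every embryo, with the highest at 0.854, Pecam1 at 0.0962 or less and Cldn5 at 0 throughout. Their summed level was 0.974, 1.59, 1.91 and 2.77 FPKM in the Foxf2+/+, Foxf2+/- and the 2 Foxf2-/- embryos, so it did not overlap between groups, and its part in the Nr2f2 difference was not tested.

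Nr2f1 (COUP-TFI, mm9 chr13:78328235-78338243), the most abundant member, measured 17.97, 18.6, 20.6 and 22.4 FPKM in the same order. Again both Foxf2-/- embryos were above both controls, but the step was small, at 21.5 ± 1.28 against 18.3 ± 0.439 FPKM (SD, n = 2 each). The log2 fold change was 0.23 ± 0.09 (SE), or 1.18-fold with a limma 95% interval of 1.01 to 1.37 and a limma adjusted p of 0.357. Nr2f6 (EAR2, mm9 chr8:73898017-73905851), the third of the group, measured 5.65, 7.34, 5.61 and 6.27 FPKM, and the Foxf2-/- embryos lay between or below the controls, with a log2 fold change of -0.12 and a limma adjusted p of 0.772. Together Nr2f1 and Nr2f2 came to 21.9, 23.2, 27.5 and 29.9992 FPKM, and both Foxf2-/- sums were above both control sums.

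Nr2f2 has 2 entries, and they encode different proteins. The entry NM_009697 holds the zinc fingers printed above in the first of its 3 exons and encodes 414 residues. NM_183261 starts at an exon of its own further upstream and splices past that exon, so its protein of 281 residues has no such zinc finger pattern. The coding part of its own first exon, with the start codon in capitals, is the stretch that tells the entries apart at the protein's start.
Nr2f2 NM_183261 first exon, coding part, mm9 chr7:77510979-77511021, minus strand: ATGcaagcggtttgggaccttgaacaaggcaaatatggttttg
The entry with zinc fingers measured 3.35, 3.97, 5.17 and 6.34 FPKM in the Foxf2+/+, Foxf2+/- and the 2 Foxf2-/- embryos, and the entry without them 0.624, 0.662, 1.73 and 1.22 FPKM. Both were higher in both Foxf2-/- embryos than in either control, the first by 0.64 ± 0.17 (SE) and the second by 1.06 ± 0.37 (SE) on the log2 scale. When each entry was fitted on its own, a reading added after the data had been seen, limma called 0 of 14 member entries and 0 of 13785 entries, or 0%, and 9.46% of all entries had an unadjusted p under 0.05. The limma adjusted p of the pair were 0.507 and 0.513. The shorter entry was more than 1.5-fold above each control (1.10 and 1.03 on the log2 scale), as were 2.44% of all entries, with 6.58% past that limit in either direction. It held 15.7% and 14.3% of Nr2f2 in controls and 25.1% and 16.1% in Foxf2-/- embryos, so most Nr2f2 signal in every embryo was assigned to the entry with zinc fingers. The entries differ in their first exon, so their separate values and shares rest on a small part of the gene's reads.

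The Nr4a group consists of orphan receptors whose genes belong to the immediate early class, transcribed within minutes of a stimulus. Nr4a2 (NURR1, mm9 chr2:56959636-56976414) measured 4.998 and 3.59 FPKM in the Foxf2+/+ and Foxf2+/- controls and 3.04 and 4.24 in the Foxf2-/- embryos. The groups overlapped, and the log2 fold change was -0.23 ± 0.21 (SE) with a limma adjusted p of 0.671. Nr4a1 (NUR77) measured 2.06, 2.07, 1.84 and 2.43 FPKM, a log2 fold change of 0.03 with a limma adjusted p of 0.960. Nr4a3 (NOR1) stayed below the filter, at 0.0322, 0.330, 0.599 and 0.504 FPKM. The 3 genes summed to 7.09, 5.99, 5.47 and 7.18 FPKM, with overlap of the groups.

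Within Nr4a2 the deposited values were divided between transcripts in a different way in each group. Its 2 entries have identical coding sequence of 1797 bases and differ in their first exon, with starts 8965 bases apart. The entry NM_013613, from the downstream start, was given 3.09 FPKM in the Foxf2+/+ and 1.12 in the Foxf2+/- control, but 0.000326 and 0.000168 in the Foxf2-/- embryos. The entry NM_001139509, from the upstream start, was given 1.91, 2.47, 3.04 and 4.24 FPKM in the same order. The downstream entry thus held 61.8% and 31.2% of Nr4a2 in controls and 0.0107% and 0.00395% in Foxf2-/- embryos, a mean shift of 46.5 percentage points. A shift of more than 25 points without overlap of the groups, a limit set after the data had been seen, was met by 156 of 2355 symbols with several entries, or 6.62%, and by 1 of 3 members among them. Nr4a2 ranked 52nd of these symbols by the size of its shift. Fitted as entries, the downstream one differed by -4.30 ± 1.06 (SE) with a limma adjusted p of 0.507 and the upstream one by 0.70 ± 0.24 (SE) with 0.511 on the log2 scale, and limma called neither. The first of these log2 changes depends on the pseudocount, since the Foxf2-/- values are far below it. The downstream entry was more than 1.5-fold below each control, as were 4.13% of all entries. Only reads in the first exons tell the entries apart, so these shares rest on a small part of the reads of a gene at 3 to 5 FPKM.

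The 250 bases before each start are printed because they are where the 2 entries differ as transcription units, with capitals at matches to the motifs searched.
Nr4a2 upstream start, mm9 chr2:56976415-56976664, minus strand: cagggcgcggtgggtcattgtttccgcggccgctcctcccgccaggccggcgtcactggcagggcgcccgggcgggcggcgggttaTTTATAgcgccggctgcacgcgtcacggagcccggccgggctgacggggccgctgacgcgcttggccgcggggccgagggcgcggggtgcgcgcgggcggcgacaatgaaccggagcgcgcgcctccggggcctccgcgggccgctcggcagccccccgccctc
Nr4a2 downstream start, mm9 chr2:56967450-56967699, minus strand: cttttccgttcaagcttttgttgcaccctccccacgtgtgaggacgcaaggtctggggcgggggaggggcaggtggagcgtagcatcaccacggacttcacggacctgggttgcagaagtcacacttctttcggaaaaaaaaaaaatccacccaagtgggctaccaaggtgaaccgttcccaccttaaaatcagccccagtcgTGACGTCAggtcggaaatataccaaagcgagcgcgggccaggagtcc
A set of 3 short motifs was searched on either strand. The first was the palindromic cAMP response element, TGACGTCA. The second was the TATA box in the form TATAAA. The last was a core found in many forkhead binding sites, spelled TAAACA. TGACGTCA began 47 bases before the downstream start and was not in the upstream window. TATAAA was matched on the opposite strand in the upstream window, 164 bases before the start. TAAACA was in neither window. Among 32851 RefSeq promoters of build GRCm38.p6, 1.55% held TGACGTCA, 12.4% held TATAAA and 12% held TAAACA in the 250 bases before their start. A match describes letters in the window and not binding.

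**Figure D3:**
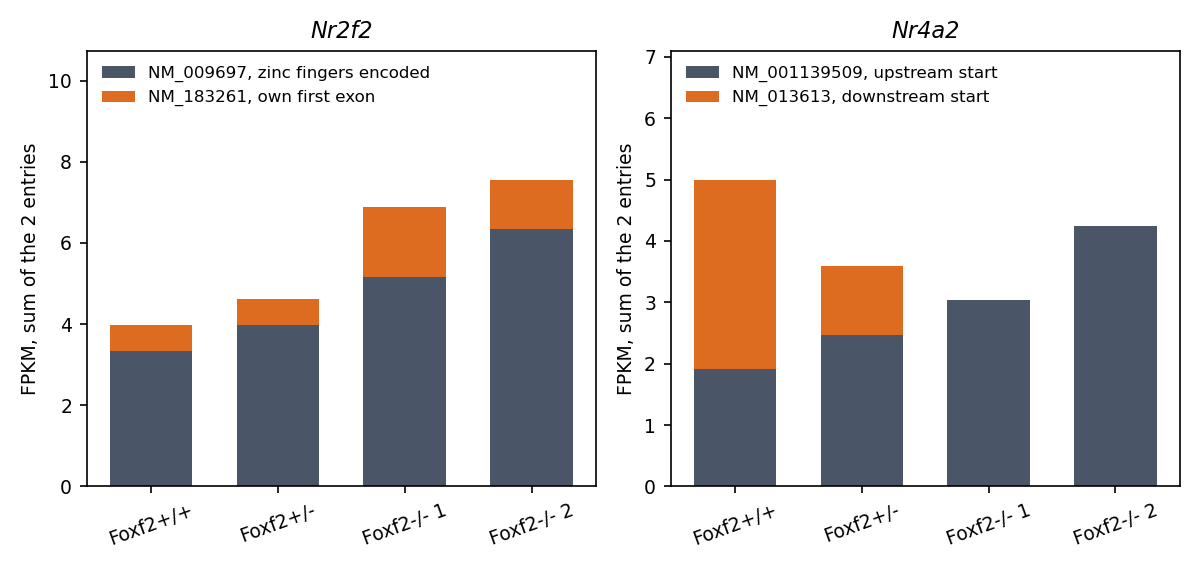
FPKM of the 2 deposited transcript entries of Nr2f2 (left) and Nr4a2 (right) in each embryo, stacked so that the bar height is the gene's sum. Both Nr2f2 entries are taller in both Foxf2-/- embryos, whereas the downstream Nr4a2 entry, 3.09 and 1.12 FPKM in the controls, is too small to be seen in the Foxf2-/- bars.

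The other immediate early genes were measured in the same cells, after these had been taken apart and sorted. Per the study's methods the palatal shelves were digested with trypsin and pipetted into single cells before sorting. The part of that handling in the levels of these genes and of the Nr4a group was not tested. Of 25 such genes 19 were tested, limma called 0, the rule of size named 0, and the median log2 fold change was 0.04. In limma 3 (Ier2, Myc and Srf) had an unadjusted p under 0.05, as had 13% of all genes tested. Both Foxf2-/- embryos lay above both controls for 5 and below for 3, against 10.2% and 35.5% of all genes. Fos measured 4.85 and 3.49 FPKM in controls and 3.29 and 3.55 in Foxf2-/- embryos, with overlap. Egr1 measured 7.18 and 6.27 against 6.48 and 9.81, also with overlap. Srf, the serum response factor that drives many of these genes, measured 7.77 and 7.79 against 9.12 and 10.1, a log2 fold change of 0.30 with a limma adjusted p of 0.328. Fos, Jun, Ier2 and Myc were highest in the Foxf2+/+ control, as was Nr4a2. Others of the list were not, with Egr1, Klf4, Dusp1 and Srf highest in Foxf2-/- embryo 2.

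Nr1d1 and Nr1d2 (REV-ERB alpha and beta) are heme-binding repressors that form the stabilising loop of the circadian clock, where they silence Arntl. Nr1d1 (mm9 chr11:98629248-98636556) measured 3.36 FPKM in the Foxf2+/+ and 2.59 in the Foxf2+/- control, and 1.97 and 2.45 in the Foxf2-/- embryos. Both Foxf2-/- embryos were below both controls, at 2.21 ± 0.337 against 2.98 ± 0.541 FPKM (SD, n = 2 each), and the gap between the nearest embryos of the groups was smaller than the spread within either group. The log2 fold change was -0.41 ± 0.19 (SE), with a fold of 0.752, a limma 95% interval of 0.555 to 1.02 and a limma adjusted p of 0.411. Against the Foxf2+/+ control it was -0.59 and against the Foxf2+/- control -0.23. Nr1d2 measured 1.12, 0.906, 1.05 and 1.09 FPKM and differed by 0.08, with a limma adjusted p of 0.926.

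Of 15 clock partners 13 were tested, limma called 0 (0 at an unadjusted p under 0.05), and the median log2 fold change was -0.11. Both Foxf2-/- embryos lay below both controls for 3 of them and above for 1, against 35.5% and 10.2% of all genes. The rule of size named 1 gene, Dbp, an output gene of the clock. It lay below both controls, as did 0.994% of all genes (1.87% passed in either direction). Dbp measured 1.44 and 0.901 FPKM in controls and 0.400 and 0.749 in Foxf2-/- embryos. Its log2 fold change was -0.93 with a limma adjusted p of 0.384. Dbp reached 1 FPKM, and so was tested, only through the Foxf2+/+ control. Arntl, the gene that REV-ERB represses, measured 1.64 and 1.17 against 1.33 and 1.11 FPKM, with overlap. Per2 and Per3, repressors of the clock, were highest in the Foxf2+/+ control at 2.65 and 1.93 FPKM, as were Nr1d1, Dbp and Arntl. Others of the list were not, with Per1 highest in Foxf2-/- embryo 2 at 5.10 FPKM, Nfil3 and Bhlhe40 highest in the Foxf2+/- control at 5.06 and 2.08, and Hlf above both controls in both Foxf2-/- embryos by 0.62 on the log2 scale (limma adjusted p 0.432). Hlf reached 1 FPKM, and so was tested, only through the Foxf2-/- embryos, at 1.06 and 1.17 FPKM against 0.620 and 0.768 in controls.

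Nr1h2 (LXR beta, mm9 chr7:51805002-51809293) is an oxysterol receptor that governs cholesterol efflux and lipid synthesis. It was the second most abundant member, at 11.4, 9.64, 11.1 and 11.6 FPKM, with overlap of the groups and a log2 fold change of 0.12, a limma adjusted p of 0.696 and a 95% interval of the fold of 0.904 to 1.30. Its paralogue Nr1h3 (LXR alpha) was listed at 0.0643, 0, 0.189 and 0.225 FPKM, so that nearly all LXR signal came from Nr1h2. Of 10 LXR targets 8 were tested, limma called 0, the rule of size named 0, and the median log2 fold change was -0.09. In limma 1 had an unadjusted p under 0.05, as had 13% of all genes tested. That 1 gene was Mylip (IDOL), which degrades the LDL receptor, at 25.3 and 22.1 FPKM in controls and 17.6 and 18.7 in Foxf2-/- embryos, a log2 fold change of -0.38 with a limma adjusted p of 0.266. Abca1, the cholesterol efflux transporter and best known LXR target, measured 2.41, 3.10, 2.81 and 3.24 FPKM and overlapped between groups.

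Nr2c1 and Nr2c2 (TR2 and TR4) are orphan receptors that bind direct repeats of the hormone response element, often as repressors. Nr2c2 measured 7.92 and 8.08 FPKM in controls against 7.997 and 8.57 in Foxf2-/- embryos, with overlap. Its log2 fold change was 0.05 with a limma adjusted p of 0.874 and a 95% interval of the fold of 0.880 to 1.22. Nr2c1 measured 2.78 and 2.86 FPKM in controls and 2.38 and 2.72 in Foxf2-/- embryos, which did not overlap, with a log2 fold change of -0.14 and a limma adjusted p of 0.721.

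Nr5a2 (LRH-1), known from liver, gonad and the early embryo, was detected at a low level of 1.52 and 1.86 FPKM in controls and 1.196 and 1.40 in Foxf2-/- embryos. The groups did not overlap, and the log2 fold change was -0.36 ± 0.22 (SE) with a limma adjusted p of 0.525. Of its 2 entries NM_001159769 held 99.9% or more of it in each embryo. Its relative Nr5a1 (SF-1), the master regulator of steroidogenic tissue, was listed at 0 in all 4 embryos.

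The members below 1 FPKM were mostly receptors of other tissues. Nr6a1 (GCNF), a germ cell and early embryonic repressor, measured 0.384, 0.501, 0.529 and 0.409 FPKM with overlap of the groups. Its leading entry was not the same in all embryos, with NM_010264 at 99.9% in the Foxf2+/+ control, NM_001159548 at 69.8% in the Foxf2+/- control, and NM_001159549 at 69.6% and 99.99% in the Foxf2-/- embryos. Nr1i3 (CAR), the liver receptor of foreign compounds, reached 0.405 FPKM in Foxf2-/- embryo 2 and no more than 0.116 in the other 3 embryos. Nr0b1 (DAX1), a partner of SF-1, was listed at 0.0770 and 0.222 FPKM in controls and at 0 in Foxf2-/- embryos. Nr0b2 (SHP) was at or below 0.108, Nr1h4 (FXR) at or below 0.0831, Nr1h5 at or below 0.104 and Nr1i2 (PXR) at or below 0.0676 FPKM. Nr2e1 (TLX), of neural stem cells, reached 0.152, and Nr2e3, of photoreceptors, 0.0926 FPKM. These genes were not tested for a difference between groups. Without the filter on low values 6 members passed the rule of size, as did 639 of 17171 genes. The 6 members were Nr2f2 and Nr3c1 with Nr1h3, Nr2e3 and Nr4a3 above and Nr0b1 below, the last 4 on values under 0.6 FPKM in every embryo.

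Nuclear receptors outside the Nr nomenclature include the partners that many members need to bind DNA. Of 24 such genes 10 were tested, limma called 0, and the median log2 fold change was 0.01. In limma 1 had an unadjusted p under 0.05, as had 13% of all genes tested. Rara, Rxra and Thra, the receptors of retinoic acid, of rexinoids and of thyroid hormone, were the most abundant. Rara measured 25.8, 23.4, 24.1 and 25.9 FPKM, more than Nr2f1 in every embryo. Rxra, the common partner of the LXRs, measured 17.2, 15.9, 16.1 and 18.5 FPKM. The rule of size named 1 gene, Rorb, an orphan receptor that binds the same sites as REV-ERB. It lay below both controls, as did 0.994% of all genes (1.87% passed in either direction). Rorb measured 1.17 and 0.891 FPKM in controls and 0.595 and 0.384 in Foxf2-/- embryos. Its log2 fold change was -0.95 ± 0.38 (SE) with a limma adjusted p of 0.357. Rorb reached 1 FPKM, and so was tested, only through the Foxf2+/+ control. Of 24 coregulators, the proteins that receptors recruit, 22 were tested, limma called 0, the rule of size named 0, and the median log2 fold change was -0.03. In limma 1 coregulator had an unadjusted p under 0.05, against 13% of all genes tested. That gene was Ncoa1 (SRC-1), a steroid receptor coactivator, at 6.41 and 6.81 FPKM in controls and 8.43 and 8.98 in Foxf2-/- embryos. Its log2 fold change was 0.39 ± 0.10 (SE) with a limma adjusted p of 0.264. All other tested coregulators lay between -0.11 and 0.15 on the log2 scale.

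**Figure D4:**
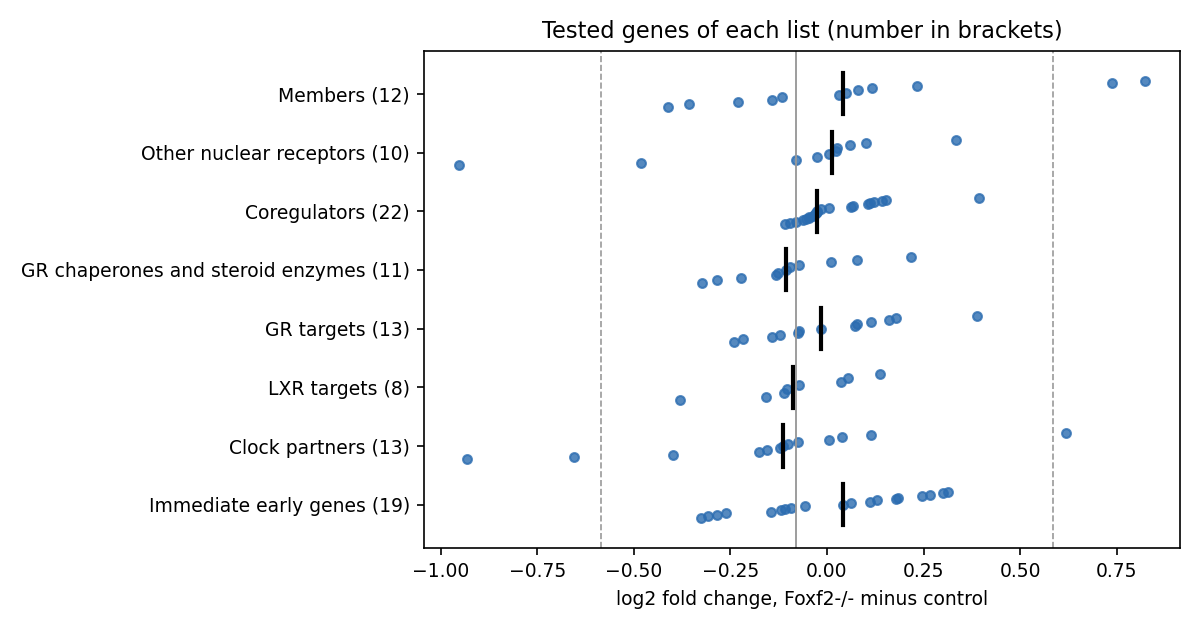
log2 fold change (Foxf2-/- minus control, on log2(FPKM + 0.1)) of every tested gene of the members and of the lists around them, 1 point per gene, where GR is the glucocorticoid receptor and LXR the oxysterol receptors. Black bars are list medians, which lie between -0.11 and 0.04, the grey line is the median of all genes tested at -0.08, and dashed lines mark 1.5-fold.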

How the data were processed

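RNA was measured in 4 libraries, each from the sorted cells of 1 embryo, and the 2 embryos of a group are separate animals. Per the study's methods and the labels, the authors aligned single-end reads of Nextera libraries with Tophat and Bowtie (0.12.7) to mouse build mm9 and deposited, per transcript entry, an FPKM value, a coverage value and a status. The tables are named and laid out as Cufflinks output, and its version and options are not given in the sources used here. Whole reads could not be recovered, so no count test was run and the depth is unknown, and the deposited coverage served only to compare depth between libraries.

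From there, entries under 200 bases (lengths at which estimates are unstable) and symbols with a failed estimate were left out, which removed 744 symbols and no member. FPKM were summed per symbol, the 11571 genes that reached 1 FPKM in any embryo were kept, and log2(FPKM + 0.1) was fitted with limma 3.58.1 in R 4.3.3 with a variance trend, after a test on simulated data. All members are named, and of the other lists those genes past a call or of the highest level. Members, lists and tests were chosen with earlier results of these data known. The minimum of 1 FPKM was also set then, because a minimum of 5 FPKM in an earlier analysis had left out measured genes. Nr3c1, which reached at most 4.75 FPKM, would not have been tested at 5 FPKM. Coordinates and sequences of genes are from mm9, and promoter counts from RefSeq. The alternatives were another pseudocount, filter, scaling, entry rule, variance model, control coding and fold limit, and each embryo left out. Fits by entry and entry shares were added after the data had been seen. No column of another sample was in the files.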

Additional observations from a re-analysis of the deposited data

How the results depend on the processing

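limma called 0 of the members under every alternative run. Its count over all genes, 7 as reported, was 11 with a pseudocount of 1, 27 with entries of every length, 12 with median-ratio and 13 with upper-quartile scaling, 17 with a mean for each genotype, 0 without a filter, with the highest entry per symbol or without a variance trend, and 7 to 38 with 1 embryo left out, where the highest was without the Foxf2+/- control. A group left with 1 embryo is assumed to vary like the other group. The genes tested were 11571 as reported, 7399 at 5 FPKM, 17171 without a filter, 11874 with every length and 11509 with the highest entry. At 5 FPKM Nr2f2 passed only through the Foxf2-/- embryos, at 6.89 and 7.56 FPKM against 3.97 and 4.63 in controls. Its result under that filter is therefore no separate support for a difference. The 2 members past 1.5-fold against both controls became 1 with a pseudocount of 1, with a minimum of 5 FPKM or with the highest entry, 6 without a filter, 0 at 2-fold, and 1 to 3 with 1 embryo left out (1 without Foxf2-/- embryo 2). The same count over all genes, 216, became 73 with a pseudocount of 1, 49 at 5 FPKM, 639 without a filter, 352 with every length, 361 with the highest entry, 1284 at 1.2-fold, 53 at 2-fold and 302 to 727 with 1 embryo left out (411 without the Foxf2+/+ and 727 without the Foxf2+/- control).

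For Nr3c1 the log2 fold change lay between 0.66 and 0.90 and the limma adjusted p between 0.0626 and 0.408 over 13 alternatives, and its smaller change against a control stayed past 1.5-fold wherever it was tested (at 5 FPKM it was not). For Nr2f2 they lay between 0.63 and 0.85 and between 0.0809 and 0.521 over 14, and its smaller change against a control, 0.63, was under the limit with a pseudocount of 1 (0.55), the highest entry (0.52) and without Foxf2-/- embryo 2 (0.56). With the number of null alleles as a linear term the slope per allele was 0.46 for Nr3c1 and 0.44 for Nr2f2, with limma adjusted p of 0.157 and 0.102. Among small changes the sign turned for Nr4a2 with the highest entry (0.70) and, with 1 embryo left out, in a range of -0.47 to 0.0031 (0.0028 without the Foxf2+/+ control and 0.0031 without Foxf2-/- embryo 1). The slope per null allele was -0.0068 for Nr1d2 and 0.0044 for Nr2f6. With 1 embryo left out Nr1d2 ran from -0.059 to 0.22, Nr2f6 from -0.30 to 0.070 and Nr1h2 from -0.0023 to 0.23, each turning without the Foxf2+/- control, and Nr2c2 ran from -0.00094 to 0.098 and Nr4a1 from -0.16 to 0.23, turning without Foxf2-/- embryo 2. The causes were not tested. Of 196 values for single genes these 10 turned sign, and the 3 of Nr2f2 under the limit kept theirs. The other 183 kept their direction, and limma called no member. A log2 fold change could still cross 1.5-fold, as that of Nr1d1 did without the Foxf2+/- control (-0.59). Depth is unknown, and 2 embryos a group limit what can be called. No paired analysis was run. The study calls the controls littermates, but no pairing of single embryos between the groups is given.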
